A study of Mus musculus with 78 samples.

Results

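Mesoderm of the mouse embryo at E7.5 was compared with primitive streak of the same day, gene by gene. The comparison rested on 4 of the 78 samples of the series, 2 RNA-seq libraries of mesoderm and 2 of primitive streak, chosen by tissue and not by any measured value. The members were all genes of the expression table apart from those whose symbol had been turned into a date or was repeated, which left 22586 genes of 22613 lines, and 12874 of these could be tested. The series profiled DNA methylation, chromatin contacts by Hi-C and gene expression across the lineages of the early mouse embryo. All 4 libraries came from embryos of C57BL/6N mothers mated naturally to DBA/2N fathers, and the labels name no mutation, transgene or treatment in either tissue. Polyadenylated RNA was column-purified and turned into libraries with a modified Smart-Seq2 protocol, a method that amplifies full-length cDNA from little input and does not mark strand. The labels do not say how the tissues were dissected, how many embryos a library held, or whether the 2 libraries of a tissue came from separate litters. P-values therefore measure spread between libraries, shared over the 11 groups of the expression table, and this spread may be technical.

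The primitive streak is the posterior strip of the gastrulating embryo where epiblast cells lose their epithelial contacts and leave the layer. Cells that have left it form the mesoderm wings between epiblast and endoderm and move on to the heart field, the blood islands, the allantois and the paraxial mesoderm. Wnt, Nodal, FGF and BMP ligands are known to act at the streak, T-box factors such as T and Eomes are used there, and factors of the Snail and Mesp families act in the cells that leave.

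Expression values were FPKM, that is fragments scaled by transcript length and by the number of mapped fragments of the library, computed by the authors. The 2 mesoderm libraries correlated at r = 0.994 on log2(FPKM + 1) over the 12874 genes tested and the 2 streak libraries at r = 0.991, while the 2 ectoderm libraries of the same day correlated at 0.966. The most common ratio of low FPKM values between libraries, shared within 1% by 237 to 268 of 819 to 974 genes listed at low values in both, gave depths relative to the first streak library of 1.23 and 1.21 for mesoderm and 1.17 for the second streak library. The absolute depth is unknown, so no counting interval is given. Differences are given as log2(FPKM + 1) in mesoderm minus that in streak, a scale that understates the change of genes near or under 1 FPKM. A gene was called when limma's moderated test gave an adjusted p under 0.05 and the log2 difference was at least 1 in size. By that rule 314 genes were higher in mesoderm, 2.44% of those tested, and 378 were lower, 2.94%, with a median log2 difference of 0.00 over all genes. The libraries of the 2 tissues did not overlap in any of these 692 genes (5.38%), but mesoderm lay above streak without overlap in 24.8% of all genes tested and below it in 27.1%, so non-overlap alone is common with 2 libraries a group. For a single gene taken alone, an exact two-sided permutation test of 2 against 2 libraries cannot go below 0.333. The calls therefore rest on limma's model, with the spread pooled over the 11 groups of the table and moderated across genes. With only the 4 compared libraries in the fit, 520 of the 692 calls were made the same way. Of the 692 calls, 398 were also made in each of the 4 fits that left out 1 of the compared libraries. In bulk tissue, fewer cells of a type and less RNA per cell cannot be told apart, in this comparison and in those that follow.

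**Figure D1:**
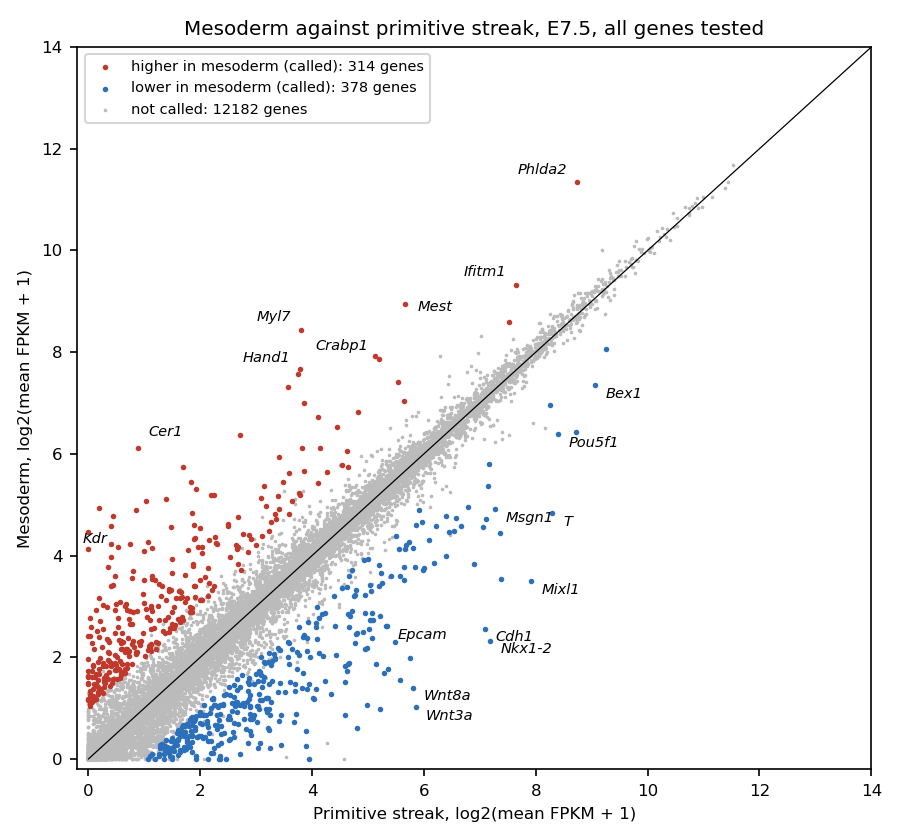
Mean expression in mesoderm (vertical axis) against primitive streak (horizontal axis), both as log2(mean FPKM + 1), for the 12874 genes tested, with the line of equal level. Genes called higher in mesoderm (314, red) lie above the line and genes called lower (378, blue) below it. *Phlda2*, *Myl7* and *Mest* stand at high levels above it, and *Mixl1*, *Cdh1* and *Nkx1-2* at high levels below it.

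The tissue labels were first set beside 6 marker genes. These were chosen with earlier results of these data known, so their agreement with the labels is no independent check of tissue identity. *Myl7* is also among the 10 largest rises of this comparison, and *Cdh1*, *Nkx1-2* and *Wnt8a* are among the 10 largest falls. *Myl7*, the atrial myosin light chain of the early heart field, had 335 and 360.0 FPKM in mesoderm, against 11.3 and 14.6 FPKM in streak. *Hand1*, a bHLH factor of lateral and extraembryonic mesoderm, had 210.2 and 165 FPKM in mesoderm, against 17.3 and 7.71 FPKM in streak. *Kdr*, the VEGF receptor that marks blood and vessel precursors, had 17.3 and 16.6 FPKM in mesoderm, against 0.259 and 0.619 FPKM in streak. All 3 were higher in both mesoderm libraries than in either streak library, with log2 differences of 4.65 ± 0.43, 3.89 ± 0.56 and 3.65 ± 0.15 (SE) and adjusted p of 7.97e-07, 0.000111 and 3.9e-11. In the other direction, *Cdh1*, E-cadherin of epithelial junctions, had 6.96 and 2.86 FPKM in mesoderm, against 136 and 135 FPKM in streak. *Nkx1-2*, a homeobox gene of the posterior streak and its neighbours, had 4.64 and 3.39 FPKM in mesoderm, against 150.2 and 138 FPKM in streak. *Wnt8a*, a posterior Wnt ligand, had 1.54 and 1.73 FPKM in mesoderm, against 54.2 and 55.5 FPKM in streak. These 3 fell in mesoderm by 4.62 ± 0.38, 4.87 ± 0.24 and 4.41 ± 0.20 (SE) on the log2 scale, with adjusted p of 2.06e-07, 2.79e-10 and 9.49e-11. A low level of each streak marker remained in mesoderm, and all 3 mesoderm markers were listed above 0 in streak.

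**Figure D2:**
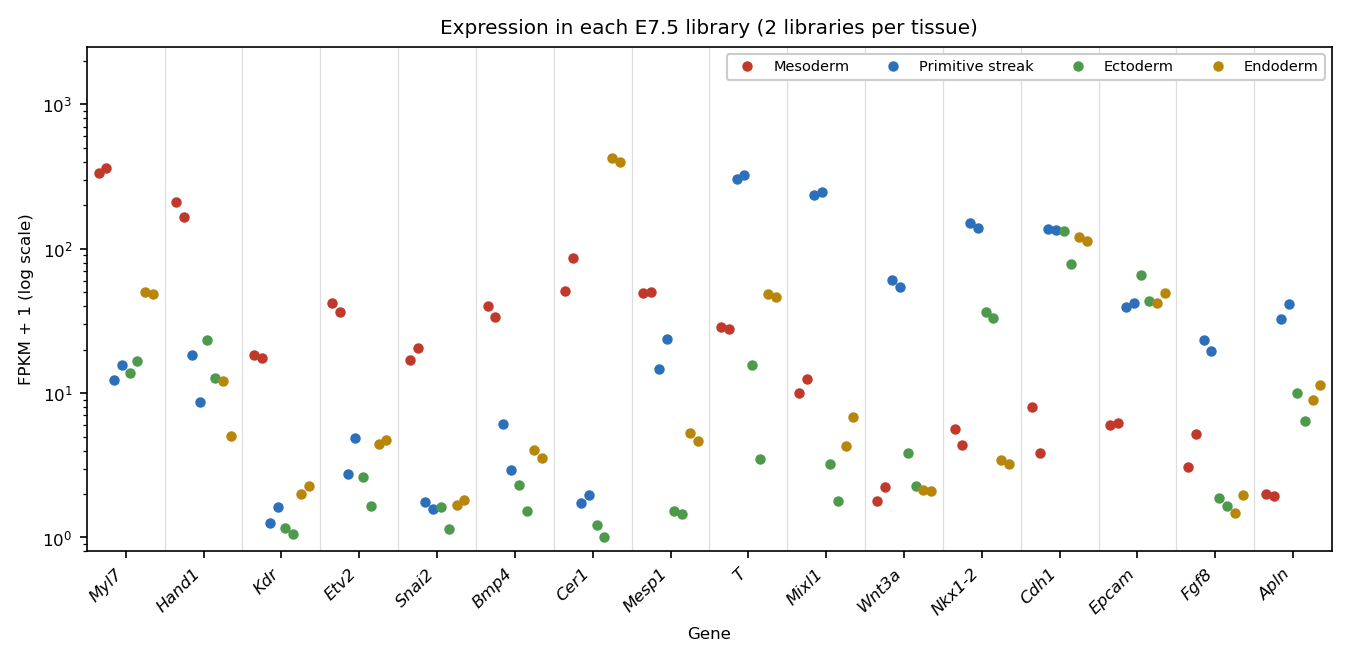
FPKM + 1 on a log axis for 16 genes in each E7.5 library, with the 2 libraries of mesoderm, primitive streak, ectoderm and endoderm from left to right within each gene. *Myl7*, *Hand1*, *Kdr*, *Etv2*, *Snai2* and *Bmp4* are highest in mesoderm, *Cer1* is highest in endoderm and next in mesoderm, and *T*, *Mixl1*, *Wnt3a* and *Nkx1-2* are highest in streak. *Cdh1* and *Epcam* are low in mesoderm alone.

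The genes with the largest rises differed in their level in streak. *Tdo2*, tryptophan dioxygenase, had 21.5 and 20.8 FPKM in mesoderm, against 0 and 0 FPKM in streak. *Tcf21*, a bHLH factor of lateral plate derivatives, had 16.3 and 16.7 FPKM in mesoderm, against 0 and 0 FPKM in streak. Both were thus listed at 0 in each streak library, so no fold is given, and their adjusted p were 7.78e-13 and 3.9e-11. *Nrp1*, the co-receptor of VEGF and class 3 semaphorins, had 26.8 and 26.1 FPKM in mesoderm, against 0.475 and 0.238 FPKM in streak, and *Alx1*, a homeobox gene of head mesenchyme, had 23.6 and 35.9 FPKM in mesoderm, against 0.0540 and 0.231 FPKM in streak. *Cer1*, a secreted antagonist of Nodal, BMP and Wnt, had 50.4 and 86.0 FPKM in mesoderm, against 0.725 and 0.968 FPKM in streak, and showed the largest log2 difference of the named genes, 5.18 ± 0.47 (SE, adjusted p = 6.55e-07). Other large rises were those of *Capn6*, *Stard8* and the imprinted RNA *H19*, with log2 differences of 4.18, 4.05 and 4.04. Besides the markers, the large falls were *Wnt3a*, *Mixl1*, *Apln*, *Cdx1*, the kinase gene *Pim2*, the threonine dehydrogenase gene *Tdh* and the glutathione transferase gene *Mgst1*. *Pim2* had 18.03 and 3.35 FPKM in mesoderm, against 128 and 204 FPKM in streak, and *Tdh* had 2.05 and 0.123 FPKM in mesoderm, against 30.5 and 30.6 FPKM in streak. In both of these the 2 mesoderm libraries differed from each other several-fold while neither overlapped with streak.

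Among called genes at the highest levels, *Phlda2*, an imprinted gene that limits placental growth, had 3007 and 2182 FPKM in mesoderm, against 517 and 338 FPKM in streak, a log2 difference of 2.61 ± 0.32 (SE, adjusted p = 2.34e-05). *Mest*, another imprinted gene, had 489.9 and 489 FPKM in mesoderm, against 39.9 and 59.0 FPKM in streak (3.31 ± 0.45, adjusted p = 7.39e-05). *Ifitm1*, an interferon-induced membrane protein gene, had 623 and 658 FPKM in mesoderm, against 200.2 and 200.3 FPKM in streak (1.67 ± 0.27, adjusted p = 0.000467). *Slc25a4*, the mitochondrial ADP/ATP carrier, rose by less (1.06 ± 0.24, adjusted p = 0.00684), and its call was lost without the first mesoderm library (adjusted p = 0.0868) or the second streak library (adjusted p = 0.0987). The highest-level genes that fell were *Bex1*, *Bex4* and *Tceal8*, small X-linked relatives whose reads may be shared among near-identical copies, together with *Pou5f1* and *T*. *Bex4* had 96.8 and 74.0 FPKM in mesoderm, against 448 and 393 FPKM in streak (-2.30 ± 0.43, adjusted p = 0.00148). *Bex1* fell by 1.72 ± 0.37 on the log2 scale (adjusted p = 0.00557), a call that was lost without the second mesoderm library (adjusted p = 0.091) or the first streak library (adjusted p = 0.0802). *Tceal8* fell by 1.20 ± 0.27 (adjusted p = 0.00763), a call that was lost without the second mesoderm library (adjusted p = 0.092), the first streak library (adjusted p = 0.0566) or the second streak library (adjusted p = 0.0713).

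Promoter sequence is shown for 4 genes that mark the 2 sides of the comparison, *Tcf21* and *Bmp4* among those that rose and *Nkx1-2* and *T* among those that fell. Each line holds the 250 bases before the gene's start from RefSeq (mouse build GRCm38.p6, a later build than the one behind the expression values), 5′ to 3′ on the gene's strand, with matches to the searched motifs in capitals. The windows are chr10:22820144-22820393 (minus strand) for *Tcf21*, chr14:46390670-46390919 (minus strand) for *Bmp4*, chr7:132599638-132599887 (minus strand) for *Nkx1-2* and chr17:8434173-8434422 (plus strand) for *T*.
Tcf21: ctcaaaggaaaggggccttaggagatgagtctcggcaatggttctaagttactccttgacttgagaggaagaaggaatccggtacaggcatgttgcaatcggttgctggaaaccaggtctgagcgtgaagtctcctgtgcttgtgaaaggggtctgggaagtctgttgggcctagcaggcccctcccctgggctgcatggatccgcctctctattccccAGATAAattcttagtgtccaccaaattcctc
Bmp4: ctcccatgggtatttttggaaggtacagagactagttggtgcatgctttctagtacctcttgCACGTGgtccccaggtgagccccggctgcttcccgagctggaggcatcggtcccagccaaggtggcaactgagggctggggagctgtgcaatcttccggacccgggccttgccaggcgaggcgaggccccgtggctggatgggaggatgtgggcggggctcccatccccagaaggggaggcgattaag
Nkx1-2: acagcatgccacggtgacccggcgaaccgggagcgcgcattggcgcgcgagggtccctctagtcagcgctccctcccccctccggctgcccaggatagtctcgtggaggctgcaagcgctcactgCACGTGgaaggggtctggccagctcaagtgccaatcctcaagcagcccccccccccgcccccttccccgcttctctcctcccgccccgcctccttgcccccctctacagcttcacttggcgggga
T: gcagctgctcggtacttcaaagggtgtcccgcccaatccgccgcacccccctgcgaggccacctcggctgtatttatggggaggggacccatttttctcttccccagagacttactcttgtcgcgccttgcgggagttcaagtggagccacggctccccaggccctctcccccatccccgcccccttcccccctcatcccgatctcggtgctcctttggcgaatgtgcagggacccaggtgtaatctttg
The letters searched on both strands for factors of the TCF/LEF family were CTTTGAT, and for the family of Gata1 they were AGATAA. Both E-box forms, CACGTG and also the form CATATG, were searched, and for T-box factors the letters were AGGTGTG. None of these motifs contains another. *Tcf21* held AGATAA starting 31 bases before the start, *Bmp4* held CACGTG at 188 bases and *Nkx1-2* held it at 125 bases, and the window of *T* held none of the letters searched. AGATAA was present in 10.6% of 199 promoters of genes higher in mesoderm, in 6.9% of 275 promoters of genes lower, and in 10.3% of all 27025 promoters of that length. CTTTGAT was present in 1.5% of promoters of higher genes, 4.0% of lower genes and 3.2% of all, and AGGTGTG in 4.5%, 7.3% and 5.1%. CACGTG was present in 7.5%, 4.7% and 6.0%, and CATATG in 3.0%, 0.4% and 3.5%. A promoter was matched for 199 of the 314 higher genes and 275 of the 378 lower genes, while the 27025 promoters include those of genes not tested here. These shares describe letters in a short window, and no test of them was made.

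Genes of the heart field and lateral plate formed the list with the highest median. Of 36 such genes, 27 were tested and 23 rose, against 2.44% of all genes tested, with none lower and a median log2 difference of 1.90 against 0.00 over all genes. Of the 23, 19 were called in each fit that left out a library. *Isl1*, a LIM-homeobox factor of the second heart field, had 17.6 and 14.6 FPKM in mesoderm, against 0.958 and 1.001 FPKM in streak (3.10 ± 0.27, adjusted p = 4.71e-07). *Foxf1*, a forkhead factor of splanchnic mesoderm, had 12.4 and 11.6 FPKM in mesoderm, against 0.891 and 0.571 FPKM in streak (2.91 ± 0.19, adjusted p = 1.16e-08). *Tbx20*, a cardiac T-box factor, had 6.75 and 6.497 FPKM in mesoderm, against 0.103 and 0.0852 FPKM in streak (2.80 ± 0.37, adjusted p = 4.57e-05). These factors were thus present at moderate levels in mesoderm and near or under 1 FPKM in streak. *Gata5* had 4.41 and 7.31 FPKM in mesoderm, against 0.0399 and 0 FPKM in streak, and *Hand2* had 3.18 and 2.63 FPKM in mesoderm, against 0 and 0 FPKM in streak. *Rgs5*, a regulator of G-protein signalling, had 16.8 and 18.6 FPKM in mesoderm, against 0.232 and 0.397 FPKM in streak (3.83 ± 0.19). None of these overlapped between the tissues, which was true of every called gene. Among early contractile genes, *Actc1*, cardiac actin, had 14.9 and 16.2 FPKM in mesoderm, against 2.51 and 3.70 FPKM in streak (2.03 ± 0.37, adjusted p = 0.00114). *Nkx2-5* had 0.230 and 0.391 FPKM in mesoderm, against 0 and 0 FPKM in streak, and *Tnnt2*, cardiac troponin T, had 0.924 and 1.61 FPKM in mesoderm, against 0 and 0 FPKM in streak, and neither reached 1 FPKM in 2 of the 22 libraries, so they were not tested. *Myh6* was not called and was under 1 FPKM in all 4 libraries.

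Of 40 blood and vessel genes, 39 were in the table and 25 were tested, of which 10 rose and 1 fell, with a median of 0.69. Of all genes tested, 2.44% rose and 2.94% fell. The count of lower genes was 2 without the second mesoderm library, 0 without the first streak library and 2 without the second streak library. *Etv2*, the ETS factor that starts the blood and endothelial programme, had 41.2 and 35.7 FPKM in mesoderm, against 1.77 and 3.85 FPKM in streak (3.42 ± 0.32, adjusted p = 8.97e-07). *Fli1*, another ETS factor, had 4.83 and 3.83 FPKM in mesoderm, against 0.0428 and 0 FPKM in streak, and *Tal1*, a bHLH factor needed for blood, had 1.33 and 2.22 FPKM in mesoderm, against 0 and 0 FPKM in streak. *Gata2* had 7.70 and 6.86 FPKM in mesoderm, against 0.650 and 0.519 FPKM in streak (2.39 ± 0.26, adjusted p = 5.87e-06). All 4 factor genes were called higher, and none overlapped between the tissues, which was true of every called gene. *Lmo2*, the LIM adaptor that partners with Tal1, went the other way with 6.49 and 6.18 FPKM in mesoderm, against 20.3 and 15.1 FPKM in streak (-1.33 ± 0.28, adjusted p = 0.00408), and its call was lost without the first streak library (adjusted p = 0.0764). The haemoglobin genes *Hbb-bh1* and *Hbb-y* and the endothelial gene *Emcn* were listed at 0 in all 4 libraries, *Hba-x* had 0.258 and 0 FPKM in mesoderm, against 0 and 0 FPKM in streak, and *Cdh5*, VE-cadherin, had 0.0533 and 0.0270 FPKM in mesoderm, against 0.0979 and 0.0555 FPKM in streak.

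Genes used in extraembryonic mesoderm and allantois rose in 10 of 14 tested, against 2.44% of all genes tested, and fell in none. Their median was 1.88. The list shares *Hand1*, *Foxf1* and *Bmp4* with the heart and lateral plate list. Of the 10, 8 were called in each fit that left out a library. *Tbx3* had 10.9 and 10.2 FPKM in mesoderm, against 1.93 and 0.653 FPKM in streak (2.39 ± 0.35) and *Pitx1* had 1.48 and 1.55 FPKM in mesoderm, against 0 and 0.0471 FPKM in streak (1.30 ± 0.19). *Tbx4*, the T-box factor of the allantois, was not tested and differed between the mesoderm libraries, with 1.02 and 0.0742 FPKM in mesoderm, against 0.0448 and 0 FPKM in streak.

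Transcription factors of the streak and nascent mesoderm had the lowest median of all lists, -2.20 over 16 genes, with 10 lower (against 2.94% of all genes tested) and 1 higher. All 10 were called in each fit that left out a library. *T*, Brachyury, had 27.9 and 27.0 FPKM in mesoderm, against 302 and 325 FPKM in streak (-3.47 ± 0.45, adjusted p = 3.73e-05). *Mixl1*, a homeobox gene induced by Nodal, had 9.01 and 11.6 FPKM in mesoderm, against 235 and 247 FPKM in streak (-4.43 ± 0.34, adjusted p = 8.65e-08). *Tbx6* had 19.9 and 25.8 FPKM in mesoderm, against 104 and 97.2 FPKM in streak, and *Msgn1* had 23.6 and 34.3 FPKM in mesoderm, against 189 and 117 FPKM in streak, both factors of presomitic mesoderm (-2.10 ± 0.31 and -2.34 ± 0.41, adjusted p = 0.000139 and 0.000917). The fall was graded, with *Mixl1* and *Nkx1-2* falling by over 4 on the log2 scale and *Tbx6* and *Msgn1* by less. The caudal genes also differed among themselves: *Cdx1* had 0.523 and 0.532 FPKM in mesoderm, against 36.7 and 17.3 FPKM in streak, *Cdx2* had 4.21 and 5.02 FPKM in mesoderm, against 25.8 and 32.1 FPKM in streak, and *Cdx4* had 22.9 and 12.8 FPKM in mesoderm, against 19.04 and 7.40 FPKM in streak, and was not called, its libraries overlapping. *Mesp1*, the bHLH factor of cells leaving the streak, was the gene of this list that rose, with 48.5 and 49.5 FPKM in mesoderm, against 13.7 and 22.6 FPKM in streak (1.43 ± 0.22, adjusted p = 0.000275). *Eomes* was low in both, with 0.517 and 0.669 FPKM in mesoderm, against 1.41 and 3.77 FPKM in streak, and was not called (adjusted p = 0.0723), although it was without the first streak library (adjusted p = 0.0219).

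**Figure D3:**
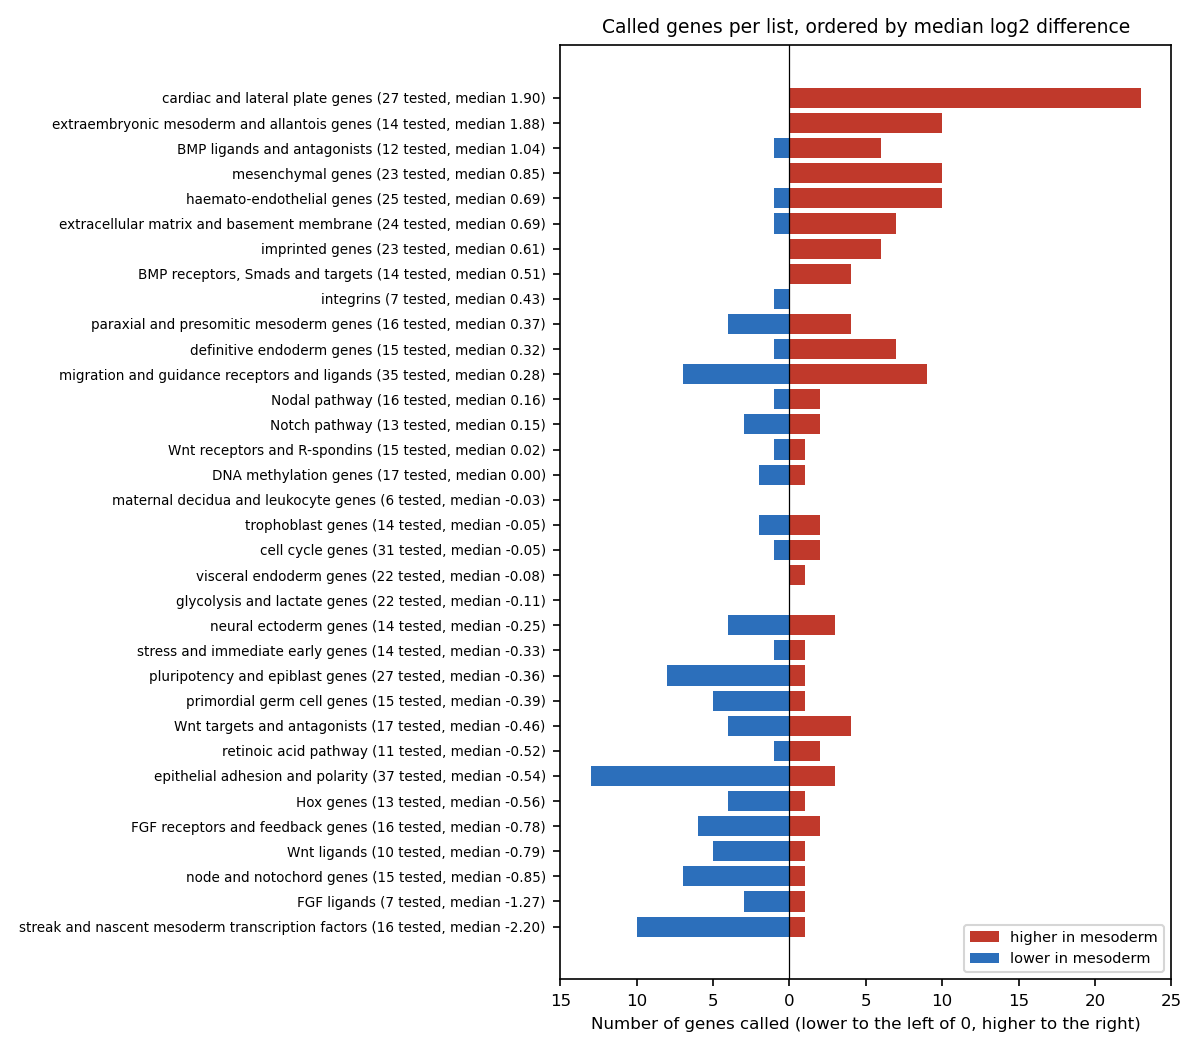
Number of genes called per list, with higher in mesoderm to the right of 0 and lower to the left, for all 34 lists, ordered by the median log2 difference of the tested members. Heart and lateral plate genes are at the top with 23 higher and none lower, and streak transcription factors at the bottom with 1 higher and 10 lower.

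Among Wnt ligands 5 of 10 tested fell and 1 rose, against 2.94% and 2.44% of all genes tested. Of the 5, 4 were called in each fit that left out a library. *Wnt3a*, the ligand of the posterior streak, had 0.792 and 1.25 FPKM in mesoderm, against 60.1 and 53.3 FPKM in streak (-4.84 ± 0.23, adjusted p = 2.26e-10). *Wnt5b* had 6.25 and 4.06 FPKM in mesoderm, against 45.2 and 32.7 FPKM in streak (-2.70 ± 0.36, adjusted p = 5.26e-05). Both mesoderm libraries lay below both streak libraries for each of these ligands, as they did for every gene called lower. *Wnt3*, needed for streak formation, was low in both tissues with 1.77 and 1.58 FPKM in mesoderm, against 3.44 and 6.04 FPKM in streak (-1.06 ± 0.31, adjusted p = 0.0455), and its call was lost without the first mesoderm library (adjusted p = 0.181), the second mesoderm library (adjusted p = 0.267) or the second streak library (adjusted p = 0.575). *Wnt2* was the ligand that rose, with 17.9 and 17.1 FPKM in mesoderm, against 2.98 and 7.43 FPKM in streak (1.68 ± 0.26, adjusted p = 0.000229), a call that was lost with a pseudocount of 0.1 (adjusted p = 0.106) and with only the 4 compared libraries or only the 8 of E7.5 in the fit (adjusted p = 0.134 and 0.0628). *Wnt5a*, a ligand of the planar polarity branch, had 19.2 and 19.6 FPKM in mesoderm, against 16.7 and 13.7 FPKM in streak, and was not called (adjusted p = 0.861). Of 15 tested receptors and R-spondins, *Fzd4* rose (6.84 and 6.28 FPKM in mesoderm, against 0.745 and 0.604 FPKM in streak) and *Fzd10* fell (1.05 and 1.07 FPKM in mesoderm, against 7.85 and 4.96 FPKM in streak). Targets and antagonists were mixed, with 4 higher and 4 lower of 17 tested. *Sfrp1*, a secreted antagonist, had 8.27 and 11.1 FPKM in mesoderm, against 0.355 and 0.352 FPKM in streak (2.97 ± 0.29), whereas *Notum*, a secreted Wnt deacylase and Wnt target, had 0.390 and 0.622 FPKM in mesoderm, against 4.60 and 3.21 FPKM in streak (-1.69 ± 0.17). *Lef1*, which carries the signal to DNA, had 84.6 and 113 FPKM in mesoderm, against 91.1 and 113 FPKM in streak, and was not called, and *Axin2*, a feedback target, had 7.66 and 7.60 FPKM in mesoderm, against 16.7 and 17.6 FPKM in streak without passing the threshold (adjusted p = 0.0772).

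FGF ligands fell in 3 of 7 tested and rose in 1, against 2.94% and 2.44% of all genes tested. *Fgf8*, the streak ligand needed for cells to leave it, had 2.06 and 4.22 FPKM in mesoderm, against 22.3 and 18.4 FPKM in streak (-2.41 ± 0.30, adjusted p = 2.21e-05). *Fgf17* had 0.477 and 1.18 FPKM in mesoderm, against 28.0 and 18.1 FPKM in streak (-3.71 ± 0.26, adjusted p = 3.82e-08) and *Fgf4* had 0.107 and 0.326 FPKM in mesoderm, against 4.11 and 3.88 FPKM in streak (-2.04 ± 0.23, adjusted p = 7.78e-06). All 3 ligands were low in both mesoderm libraries and, like every called gene, did not overlap with streak. *Fgf10*, used in the second heart field, rose with 7.43 and 6.66 FPKM in mesoderm, against 1.07 and 1.63 FPKM in streak (1.78 ± 0.27, adjusted p = 0.000211), and *Fgf3* had 16.5 and 18.8 FPKM in mesoderm, against 13.2 and 15.1 FPKM in streak, and was not called. Of 16 receptors and feedback genes 6 fell and 2 rose. Both of these counts were smaller whichever of the 4 libraries was left out. *Dusp6*, the ERK phosphatase induced by FGF signalling, had 21.99 and 23.4 FPKM in mesoderm, against 135 and 128 FPKM in streak (-2.48 ± 0.33, adjusted p = 6.04e-05), and *Etv4* and *Etv5*, ETS factors downstream of FGF, fell by 2.31 ± 0.28 and 2.26 ± 0.32 on the log2 scale. *Spry4*, a feedback inhibitor, had 1.56 and 1.95 FPKM in mesoderm, against 13.4 and 15.3 FPKM in streak. These feedback genes thus fell together with *Fgf8*, *Fgf17* and *Fgf4*, at adjusted p of 1.97e-05 for *Etv4*, 0.000106 for *Etv5* and 0.00314 for *Spry4*. Of the receptors, *Fgfr1*, the main receptor of the streak, had 12.1 and 18.6 FPKM in mesoderm, against 14.3 and 15.5 FPKM in streak, and was not called, and *Fgfr3* rose with 9.44 and 12.1 FPKM in mesoderm, against 0.970 and 0.447 FPKM in streak (2.79 ± 0.34, adjusted p = 1.81e-05).

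BMP ligands and antagonists rose in 6 of 12 tested and fell in 1, or in 2 without the first streak library, with a median of 1.04. *Bmp4*, which patterns lateral and extraembryonic mesoderm, had 38.9 and 32.5 FPKM in mesoderm, against 5.12 and 1.96 FPKM in streak (3.10 ± 0.41, adjusted p = 4.59e-05). *Bmp5* had 12.1 and 13.2 FPKM in mesoderm, against 0.372 and 0.182 FPKM in streak, and *Bmp2* had 5.10 and 9.45 FPKM in mesoderm, against 0.220 and 0.594 FPKM in streak (3.42 ± 0.30 and 2.52 ± 0.27, adjusted p = 5.05e-07 and 4.45e-06). *Fst*, follistatin, which binds activins and BMPs, fell with 2.79 and 2.50 FPKM in mesoderm, against 23.3 and 24.3 FPKM in streak (-2.77 ± 0.30, adjusted p = 4.45e-06). These 3 ligand genes were higher and this antagonist lower in both mesoderm libraries than in either streak library, and no called gene overlapped. Of 14 receptors, Smads and targets 4 rose and none fell, and all 14 had a log2 difference above 0. Of all genes tested, 2.44% rose and 2.94% fell. *Id2* had 121 and 105 FPKM in mesoderm, against 28.3 and 25.9 FPKM in streak, and *Msx2* had 67.7 and 53.5 FPKM in mesoderm, against 13.5 and 5.62 FPKM in streak, both genes induced by BMP in many tissues (2.02 ± 0.40 and 2.64 ± 0.46, adjusted p = 0.00268 and 0.000856). *Id1* and *Id3*, also BMP targets, had log2 differences of 0.52 and 0.51 and were not called.

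**Figure D4:**
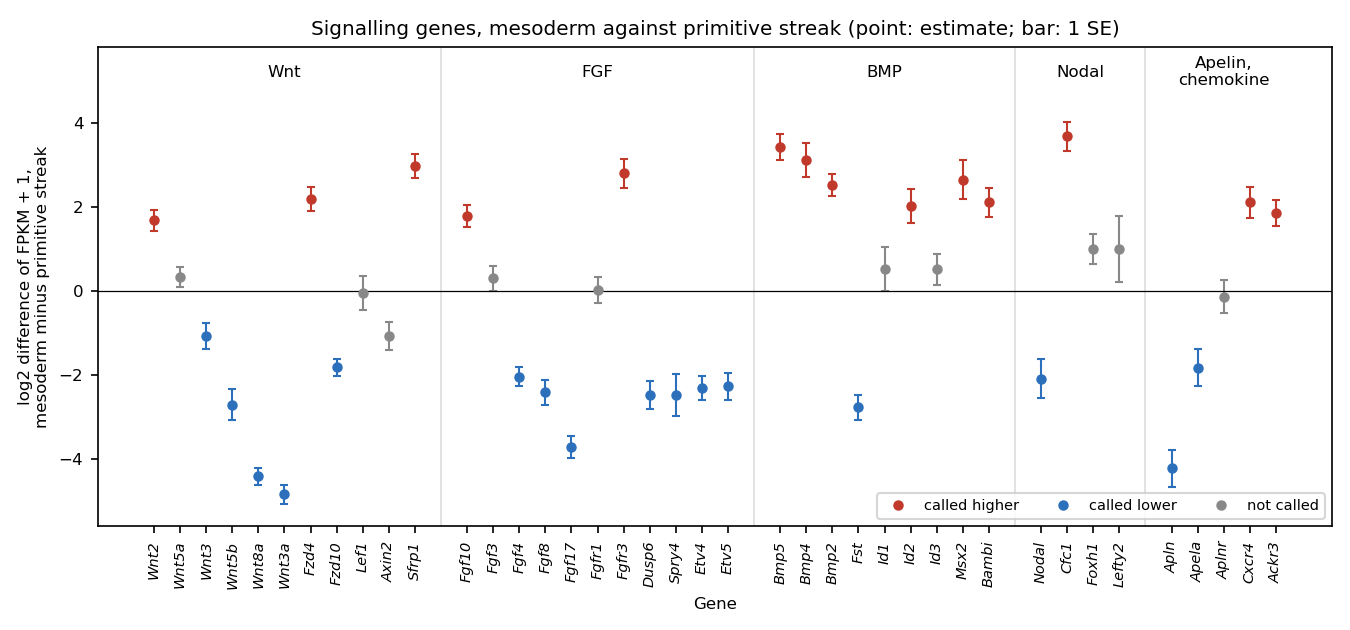
Log2 difference of FPKM + 1, mesoderm minus primitive streak, for genes of the Wnt, FGF, BMP and Nodal pathways and for apelin and chemokine genes, with 1 SE from limma. *Wnt3a*, *Wnt8a*, *Fgf8*, *Fgf17* and *Apln* lie below 0, *Bmp4*, *Bmp5* and *Cfc1* above it, and *Fgfr1*, *Lef1* and *Aplnr* near it.

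In the Nodal pathway 2 of 16 genes rose and 1 fell, against 2.44% and 2.94% of all genes tested. *Cfc1*, a co-receptor of Nodal, had 86.3 and 76.7 FPKM in mesoderm, against 6.88 and 4.29 FPKM in streak (3.67 ± 0.34, adjusted p = 9.55e-07). *Nodal* itself was low, with 0.107 and 0.0543 FPKM in mesoderm, against 3.01 and 4.32 FPKM in streak (-2.10 ± 0.46, adjusted p = 0.00673), and its call was lost without the second mesoderm library (adjusted p = 0.0637) or the second streak library (adjusted p = 0.0916). *Lefty2*, a Nodal target and antagonist, had 91.5 and 89.5 FPKM in mesoderm, against 15.4 and 127 FPKM in streak. *Tdgf1*, the other co-receptor, had 10.4 and 9.18 FPKM in mesoderm, against 11.8 and 53.4 FPKM in streak. In both of these the streak libraries differed from each other by far more than the mesoderm libraries did, and neither gene was called (adjusted p = 0.96 and 0.603).

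Notch and retinoic acid genes were split. Of 13 Notch genes tested 2 rose and 3 fell, against 2.44% and 2.94% of all genes tested. The count of higher genes was 1 without the second mesoderm library and 1 without the second streak library. The count of lower genes was 1 without the first streak library. *Hes7*, the oscillating repressor of the segmentation clock, had 0.800 and 2.06 FPKM in mesoderm, against 24.3 and 14.2 FPKM in streak (-3.06 ± 0.27, adjusted p = 3.85e-07), and *Hey2* had 3.69 and 2.95 FPKM in mesoderm, against 0.372 and 0.181 FPKM in streak (1.76 ± 0.19, adjusted p = 6.54e-06). Of 11 retinoic acid genes 2 rose and 1 fell, or 2 fell without the second streak library. *Crabp1*, a carrier of retinoic acid, had 221 and 245 FPKM in mesoderm, against 36.5 and 34.5 FPKM in streak (2.68 ± 0.37, adjusted p = 8.85e-05). *Aldh1a2*, the enzyme that makes retinoic acid in mesoderm, had 58.5 and 96.5 FPKM in mesoderm, against 148 and 118 FPKM in streak, and was not called (adjusted p = 0.354), so both tissues held it at a high level.

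Epithelial adhesion and polarity genes fell in 13 of 37 tested and rose in 3, against 2.94% and 2.44% of all genes tested. Their median was -0.54. Of the 13, 8 were called in each fit that left out a library. Besides *Cdh1*, *Epcam*, an adhesion molecule of epithelia, had 4.99 and 5.25 FPKM in mesoderm, against 38.5 and 40.9 FPKM in streak (-2.73 ± 0.38, adjusted p = 9.67e-05). *Esrp1*, a splicing factor of epithelial cells, had 0.386 and 0.530 FPKM in mesoderm, against 6.17 and 6.59 FPKM in streak (-2.34 ± 0.23, adjusted p = 2e-06). *Grhl3*, a grainyhead factor of surface epithelia, had 0.235 and 0.199 FPKM in mesoderm, against 11.5 and 8.23 FPKM in streak (-3.14 ± 0.24, adjusted p = 7.95e-08). None of these overlapped between the tissues, which was true of every called gene. *Cldn7*, a claudin, had 2.38 and 0.841 FPKM in mesoderm, against 14.8 and 17.0 FPKM in streak. *Rab25*, a small GTPase of epithelial membranes, had 1.18 and 0.486 FPKM in mesoderm, against 12.4 and 11.8 FPKM in streak. The tight-junction scaffold *Tjp1* and the desmosomal gene *Dsp* were not called (-0.45 ± 0.35 and 0.08 ± 0.22). The simple-epithelium keratins rose instead: *Krt8* had 134 and 119 FPKM in mesoderm, against 16.9 and 10.2 FPKM in streak (3.17 ± 0.37, adjusted p = 1.38e-05) and *Krt18*, its partner, had 255 and 232 FPKM in mesoderm, against 42.3 and 25.2 FPKM in streak (2.86 ± 0.44, adjusted p = 0.000219). Both keratins have many processed copies in the genome, among which the authors' counting may have split reads.

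Mesenchymal genes rose in 10 of 23 tested, against 2.44% of all genes tested, and fell in none, with a median of 0.85. *Snai2*, a Snail-family repressor of *Cdh1*, had 16.0 and 19.7 FPKM in mesoderm, against 0.754 and 0.587 FPKM in streak (3.49 ± 0.19, adjusted p = 9.59e-10). *Twist1* had 3.97 and 5.13 FPKM in mesoderm, against 0.435 and 0.598 FPKM in streak, and *Zeb1* had 2.05 and 2.79 FPKM in mesoderm, against 0.286 and 0.636 FPKM in streak, both repressors of epithelial genes. All 3 repressors were called higher and stayed under 1 FPKM in streak. *Meis1*, a homeobox cofactor of Hox proteins, had 20.2 and 24.97 FPKM in mesoderm, against 1.64 and 1.92 FPKM in streak (3.08 ± 0.35, adjusted p = 7.87e-06). *Snai1*, the Snail factor of the streak, had 44.8 and 56.1 FPKM in mesoderm, against 47.3 and 42.1 FPKM in streak. *Cdh2*, N-cadherin, had 34.5 and 38.8 FPKM in mesoderm, against 28.0 and 29.9 FPKM in streak, and *Vim*, vimentin, had 122 and 116 FPKM in mesoderm, against 101 and 88.1 FPKM in streak. None of these 3 was called (adjusted p = 1.0, 1.0 and 1.0), while each was higher in streak than in ectoderm, a comparison in which 2.73% of genes tested were higher, with log2 differences of 2.81, 1.87 and 1.92 and adjusted p of 2.75e-05, 0.00274 and 0.00729. *Cdh1* had 136 and 135 FPKM in streak and 132 and 77.0 FPKM in ectoderm, a difference that was not called (adjusted p = 0.646). The 2 comparisons share the streak libraries and so are not independent. Streak against ectoderm had a median log2 difference of 0.21 over all genes. No gene was called there with only the 4 streak and ectoderm libraries in the fit.

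**Figure D5:**
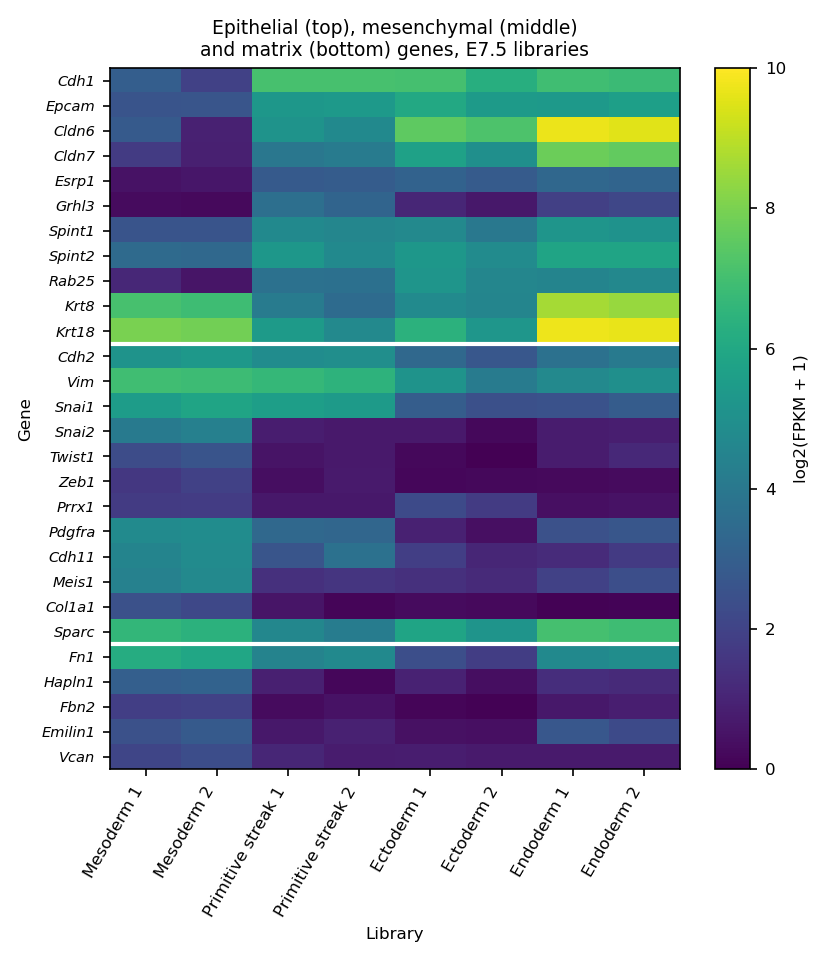
Log2(FPKM + 1) of epithelial, mesenchymal and matrix genes (rows) in the 8 libraries of E7.5 (columns, mesoderm, primitive streak, ectoderm and endoderm from left to right). Epithelial genes other than *Krt8* and *Krt18* are darker in mesoderm than in streak, *Snai1*, *Cdh2* and *Vim* are about as bright in streak as in mesoderm, and *Snai2*, *Twist1* and *Meis1* are brighter in mesoderm than in the other tissues.

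Matrix genes rose in 7 of 24 tested and fell in 1, against 2.44% and 2.94% of all genes tested, with a median of 0.69. *Hapln1*, which links hyaluronan to proteoglycans, had 7.21 and 7.80 FPKM in mesoderm, against 0.839 and 0.130 FPKM in streak (2.56 ± 0.21, adjusted p = 1.5e-07). *Emilin1*, a gene of elastic fibres, had 4.52 and 6.14 FPKM in mesoderm, against 0.568 and 0.871 FPKM in streak (1.87 ± 0.28, adjusted p = 0.000175), and *Fbn2*, a fibrillin gene, had 2.64 and 2.79 FPKM in mesoderm, against 0.240 and 0.396 FPKM in streak (adjusted p = 3.26e-07). *Fn1*, fibronectin, had 71.9 and 59.4 FPKM in mesoderm, against 21.04 and 26.1 FPKM in streak (1.44 ± 0.33, adjusted p = 0.00784), and its call was lost without the first mesoderm library (adjusted p = 0.107) or the first streak library (adjusted p = 0.107). The basement membrane genes *Col4a1*, *Lamc1* and *Nid2* were not called, with log2 differences of 0.73, -0.11 and -0.92. *Itgb1* and *Itga5*, the subunits of a fibronectin receptor, were not called either (0.53 and 0.70). The collagen receptor subunit *Itga1* was the integrin of 7 tested that fell, with 1.12 and 1.04 FPKM in mesoderm, against 3.05 and 5.201 FPKM in streak, a call that was lost without the second streak library (adjusted p = 0.0857).

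Guidance and migration genes rose in 9 of 35 tested and fell in 7, against 2.44% and 2.94% of all genes tested. Of the apelin system, *Apln*, a ligand, had 0.994 and 0.938 FPKM in mesoderm, against 31.8 and 40.1 FPKM in streak (-4.22 ± 0.44, adjusted p = 3.82e-06). *Apela*, the other ligand, listed in the table as Gm10664, had 12.9 and 6.22 FPKM in mesoderm, against 45.6 and 26.02 FPKM in streak (-1.83 ± 0.43, adjusted p = 0.0116), and its call was lost without the second mesoderm library (adjusted p = 0.246) or the first streak library (adjusted p = 0.208). Their receptor *Aplnr* had 103 and 120.0 FPKM in mesoderm, against 108 and 138 FPKM in streak, and was not called (adjusted p = 1.0). The receptor was thus at about 100 FPKM or more in all 4 libraries while *Apln* was near 1 FPKM in mesoderm. The chemokine receptor *Cxcr4* had 6.71 and 6.13 FPKM in mesoderm, against 0.539 and 0.924 FPKM in streak (2.11 ± 0.37, adjusted p = 0.000784). *Ackr3*, a receptor of the same ligand listed as Cxcr7, had 6.67 and 6.95 FPKM in mesoderm, against 1.49 and 0.868 FPKM in streak (1.86 ± 0.31, adjusted p = 0.000617). Both receptors were low in streak and, like every called gene, did not overlap between the tissues. *Pdgfra*, a receptor of migrating mesoderm, had 26.5 and 27.8 FPKM in mesoderm, against 9.46 and 8.79 FPKM in streak (1.48 ± 0.31, adjusted p = 0.00396). *Unc5c*, a netrin receptor, had 3.07 and 2.02 FPKM in mesoderm, against 0.0813 and 0.0230 FPKM in streak, and its ligand gene *Ntn1* had 0.583 and 0.866 FPKM in mesoderm, against 4.41 and 4.83 FPKM in streak, both called (1.74 ± 0.15 and -1.71 ± 0.23). *Epha1*, an ephrin receptor, had 4.13 and 3.70 FPKM in mesoderm, against 41.2 and 46.4 FPKM in streak (-3.19 ± 0.40, adjusted p = 2.42e-05), and *Sema6a*, a membrane semaphorin, had 2.04 and 3.01 FPKM in mesoderm, against 20.5 and 25.5 FPKM in streak (-2.77 ± 0.35, adjusted p = 3.15e-05).

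Paraxial mesoderm genes rose in 4 of 16 tested and fell in 4, against 2.44% and 2.94% of all genes tested. *Ripply2*, a co-repressor that stops Tbx6 action at somite borders, had 40.7 and 26.6 FPKM in mesoderm, against 0.856 and 2.35 FPKM in streak (3.77 ± 0.37, adjusted p = 2e-06), and *Foxc2* had 2.002 and 1.63 FPKM in mesoderm, against 0.245 and 0.209 FPKM in streak (1.19 ± 0.12, adjusted p = 2.55e-06). *Meox1*, a somite gene, had 3.27 and 5.43 FPKM in mesoderm, against 8.03 and 4.54 FPKM in streak, and was not called. Those that fell were *Tbx6*, *Msgn1*, *Hes7* and *Dll1*, and the call of *Dll1*, a Notch ligand of presomitic mesoderm, was lost whichever of the 4 libraries was left out (adjusted p = 0.0531 to 0.143). Hox genes were tested in 13 of 39 cases, with 4 lower and 1 higher. The count of higher genes was 3 without the second mesoderm library and 2 without the first streak library. *Hoxb1*, an anterior gene first used in the posterior streak, had 47.8 and 62.1 FPKM in mesoderm, against 147 and 138 FPKM in streak (-1.37 ± 0.25, adjusted p = 0.00131). *Hoxb6* rose, with 8.60 and 6.06 FPKM in mesoderm, against 1.78 and 0.192 FPKM in streak (2.18 ± 0.28, adjusted p = 4.16e-05).

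Pluripotency and epiblast genes fell in 8 of 27 tested and rose in 1, against 2.94% and 2.44% of all genes tested. The count of lower genes was 4 without the second mesoderm library. *Nanog* had 2.81 and 1.79 FPKM in mesoderm, against 22.1 and 25.4 FPKM in streak (-2.92 ± 0.56, adjusted p = 0.00212). *Pou5f1*, Oct4, had 78.8 and 86.1 FPKM in mesoderm, against 321 and 354 FPKM in streak (-2.02 ± 0.59, adjusted p = 0.048), and its call was lost whichever of the 4 libraries was left out (adjusted p = 0.19 to 0.258). *Otx2*, an epiblast and anterior gene, was the one that rose, with 19.8 and 24.5 FPKM in mesoderm, against 0.815 and 5.11 FPKM in streak (2.79 ± 0.41, adjusted p = 0.000148), and the 2 streak libraries differed from each other. Germ cell genes, several of them shared with the pluripotency list, fell in 5 of 15 and rose in 1, *Ifitm1*. The count of lower genes was 2 without the first mesoderm library, 2 without the second mesoderm library and 2 without the first streak library. *Dppa3* had 0 and 0.171 FPKM in mesoderm, against 1.02 and 0 FPKM in streak, and *Nanos3* had 0.193 and 0 FPKM in mesoderm, against 0.716 and 0 FPKM in streak, so both of these germ cell genes were listed at 0 in the second streak library and neither was called.

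Of 17 genes on the DNA methylation list 1 rose and 2 fell, against 2.44% and 2.94% of all genes tested. *Gadd45g* had 11.7 and 10.6 FPKM in mesoderm, against 0.284 and 0.494 FPKM in streak (3.13 ± 0.43, adjusted p = 8.43e-05). *Dnmt3b*, the de novo methyltransferase of the epiblast, had 14.4 and 11.2 FPKM in mesoderm, against 43.0 and 55.2 FPKM in streak (-1.87 ± 0.39, adjusted p = 0.00431), and its call was lost without the second mesoderm library (adjusted p = 0.0696) or the second streak library (adjusted p = 0.0673). *Gadd45a* was the other gene that fell (-1.55 ± 0.39, adjusted p = 0.0178), and its call was lost whichever of the 4 libraries was left out (adjusted p = 0.0552 to 0.194). *Dnmt1*, which copies methylation after replication, had 28.2 and 31.1 FPKM in mesoderm, against 30.2 and 34.4 FPKM in streak, and *Tet1*, which oxidises methylated cytosine, had 2.12 and 2.86 FPKM in mesoderm, against 1.73 and 3.61 FPKM in streak. Neither was called, nor were *Dnmt3a*, *Tet2* and *Tet3*, with log2 differences of -0.46, 0.11 and -0.21.

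Imprinted genes rose in 6 of 23 tested, against 2.44% of all genes tested, and fell in none, with a median of 0.61. *Igf2*, a growth factor gene next to *H19*, had 25.8 and 29.4 FPKM in mesoderm, against 3.38 and 1.88 FPKM in streak (adjusted p = 7.42e-07), and *H19* had 27.3 and 38.4 FPKM in mesoderm, against 0.974 and 1.09 FPKM in streak (4.04 ± 0.28, adjusted p = 2.46e-08). *Cdkn1c*, a cell cycle inhibitor, had 6.12 and 6.89 FPKM in mesoderm, against 1.17 and 0.500 FPKM in streak, and *Peg10* had 3.46 and 4.27 FPKM in mesoderm, against 0.458 and 0.518 FPKM in streak (2.06 ± 0.23 and 1.71 ± 0.19, adjusted p = 7.03e-06 and 5.49e-06). With *Phlda2* and *Mest*, these 6 were called in each fit that left out a library. *Peg3* and *Gnas*, also imprinted, had log2 differences of 0.01 and -0.27 and were not called.

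Cell cycle genes were called in 3 of 31 cases, against 5.38% of all genes tested, with *Cdkn1c* and *Myc* higher and *Cdkn1a* lower. *Cdkn1a*, the p21 inhibitor, had 2.90 and 2.47 FPKM in mesoderm, against 26.6 and 22.1 FPKM in streak (-2.78 ± 0.44, adjusted p = 0.00031). *Myc* had 46.9 and 38.2 FPKM in mesoderm, against 11.6 and 8.72 FPKM in streak (1.97 ± 0.43, adjusted p = 0.00623), and its call was lost without the first mesoderm library (adjusted p = 0.0795) or the second streak library (adjusted p = 0.0857). No glycolysis or lactate gene of 22 tested was called by limma, with 1 under an unadjusted p of 0.05, and *Ldha* had 2825 and 2409.6 FPKM in mesoderm, against 3023 and 2508 FPKM in streak. Stress and immediate early genes were called in 2 of 14 cases, *Jun* higher and *Gadd45a* lower, and the call of *Jun* was lost without the second mesoderm library (adjusted p = 0.282), the first streak library (adjusted p = 0.115) or the second streak library (adjusted p = 0.115).

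Markers of other tissues were read in the same libraries. Of 22 visceral endoderm genes, 16 were under 1 FPKM in both mesoderm libraries and 13 in both streak libraries, and their summed level was 62.8 and 69.0 FPKM in mesoderm and 87.1 and 71.7 FPKM in streak, against 13098 and 12392 FPKM in the endoderm libraries. *Ttr*, a defining gene, had 0.597 and 0 FPKM in mesoderm, against 0.122 and 1.90 FPKM in streak, and *Apoa4* was listed at 0 in all 4 libraries. *Dab2* was the gene of this list that rose (12.8 and 16.6 FPKM in mesoderm, against 4.15 and 5.42 FPKM in streak), and its call was lost whichever of the 4 libraries was left out (adjusted p = 0.0812 to 0.251). Definitive endoderm genes rose in 7 of 15 tested and fell in 1, against 2.44% and 2.94% of all genes tested. Their summed levels were 99.1 and 138 FPKM in mesoderm, 66.9 and 62.0 FPKM in streak and 1461 and 1425 FPKM in endoderm. The count of higher genes was 4 without the first mesoderm library and 3 without the second mesoderm library. Those that rose were *Cer1*, *Otx2*, *Cxcr4*, *Hhex*, *Sfrp5*, *Gata4* and *Gata6*. The call of *Hhex* was lost without the first mesoderm library (adjusted p = 0.074), the second mesoderm library (adjusted p = 0.134) or the second streak library (adjusted p = 0.225). That of *Sfrp5* was lost without the second mesoderm library (adjusted p = 0.142) or the second streak library (adjusted p = 0.0548). That of *Gata4* was lost without the first mesoderm library (adjusted p = 0.051), the second mesoderm library (adjusted p = 0.0666) or the first streak library (adjusted p = 0.149), and that of *Gata6* without the first mesoderm library (adjusted p = 0.0711), the second mesoderm library (adjusted p = 0.0571) or the first streak library (adjusted p = 0.077). Of the defining genes, *Sox17* had 0 and 0 FPKM in mesoderm, against 0 and 0.0360 FPKM in streak, *Foxa1* had 0 and 0 FPKM in mesoderm, against 0.0414 and 0.247 FPKM in streak, and *Foxa2* had 0 and 0.107 FPKM in mesoderm, against 0.708 and 1.10 FPKM in streak. None of these 3 was called. *Trh*, the thyrotropin-releasing hormone gene, fell with 3.86 and 2.01 FPKM in mesoderm, against 57.4 and 48.6 FPKM in streak. Endoderm held 859.8 and 885 FPKM of it. Node and notochord genes fell in 7 of 15 tested and rose in 1, *Cer1*. Fewer falls were called without the second mesoderm library or the second streak library, and more rises without the first streak library. The summed levels of this list were 70.3 and 106 FPKM in mesoderm and 119 and 98.7 FPKM in streak. Of its 16 genes, 11 were under 1 FPKM in both mesoderm libraries and 6 in both streak libraries. *Noto*, the homeobox gene of the node, had 0 and 0.147 FPKM in mesoderm, against 4.79 and 6.33 FPKM in streak (-2.60 ± 0.28, adjusted p = 4.6e-06), *Foxj1*, which drives motile cilia, had 0 and 0.0863 FPKM in mesoderm, against 2.60 and 5.67 FPKM in streak (-2.23 ± 0.25, adjusted p = 8e-06), and both were lower in mesoderm than in endoderm, where *Noto* had 34.6 and 23.8 FPKM and *Foxj1* 14.8 and 10.3 FPKM (-4.80 and -3.68 for mesoderm minus endoderm, adjusted p = 5.13e-10 and 4.47e-09). The part of node or endoderm cells in the difference between mesoderm and streak was not tested.

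Neural ectoderm genes rose in 3 of 14 tested and fell in 4, against 2.44% and 2.94% of all genes tested. Of the 22 listed, 16 were under 1 FPKM in both mesoderm libraries and 14 in both streak libraries. Their summed levels were 45.5 and 55.1 FPKM in mesoderm and 101 and 81.3 FPKM in streak. The count of higher genes was 1 without the second mesoderm library and 1 without the second streak library. The count of lower genes was 2 without the first streak library. *Sox1*, which defines neural plate, was at 0 in both mesoderm libraries and at 0.0644 and 0.0548 FPKM in streak, and *Fabp7* fell with 13.0 and 13.8 FPKM in mesoderm, against 82.3 and 60.1 FPKM in streak (-2.31 ± 0.31, adjusted p = 5.1e-05). Trophoblast genes rose in 2 of 14 and fell in 2, with 10 of 18 under 1 FPKM in both libraries of either tissue and summed levels of 53.8 and 41.0 FPKM in mesoderm and 57.7 and 58.4 FPKM in streak. The count of higher genes was 1 without the first mesoderm library, 1 without the second mesoderm library and 1 without the second streak library. The count of lower genes was 1 without the first mesoderm library and 1 without the second mesoderm library. *Plac1*, a gene of placenta and extraembryonic tissue, rose with 22.1 and 11.3 FPKM in mesoderm, against 1.87 and 0.500 FPKM in streak (3.02 ± 0.53, adjusted p = 0.000823), while *Elf5*, *Tpbpa* and *Prl3d1* were listed at 0 in both mesoderm libraries. Of 20 genes of maternal decidua and leukocytes 17 were in the table, 16 of these were under 1 FPKM in both libraries of either tissue, and *Ptprc*, which defines leukocytes, was listed at 0 in all 4. Their summed levels were 5.68 and 6.69 FPKM in mesoderm and 6.75 and 5.79 FPKM in streak, and limma called none of the 6 tested, with 0 under an unadjusted p of 0.05.

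The called genes were then followed in the other E7.5 tissues. Of the 314 genes higher in mesoderm than in streak, 236 (75.2%) had their highest mean of the 4 tissues in mesoderm and 73 (23.2%) in endoderm, and of all genes tested 25.4% were highest in mesoderm and 36.5% in endoderm. Of the 378 genes lower in mesoderm, 204 (54.0%) were highest in streak, 103 (27.2%) in endoderm and 71 (18.8%) in ectoderm, and of all genes tested 25.1% were highest in streak and 13.0% in ectoderm. The choice of genes fixes part of these shares, since a gene higher in mesoderm cannot be highest in streak. Between mesoderm and endoderm, 3.54% of genes tested were higher in mesoderm and 10.7% lower, 456 and 1382 genes, and 617 and 1132 after quantile normalization. Among them, *Foxf1* had 12.4 and 11.6 FPKM in mesoderm and 0.614 and 0.234 FPKM in endoderm (3.20, adjusted p = 6.4e-10 for mesoderm minus endoderm), and *Snai2* had 16.0 and 19.7 FPKM in mesoderm and 0.687 and 0.807 FPKM in endoderm (3.42, adjusted p = 2.35e-10). *Stard8*, which had 29.5 and 27.8 FPKM in mesoderm and 21.9 and 25.7 FPKM in endoderm, was not called between these tissues (adjusted p = 0.72). *Cer1*, *H19*, *Krt8* and *Krt18* were higher in endoderm than in mesoderm, with log2 differences of -2.63, -1.99, -1.57 and -1.78 for mesoderm minus endoderm and adjusted p of 0.00041, 3.11e-05, 0.00531 and 0.00649.

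Genes lower in mesoderm than in streak differed in their ectoderm level. Between streak and ectoderm 351 genes were higher in streak (2.73%) and 77 lower (0.598%), 428 in all (3.32%), around a median log2 difference of 0.21 over all genes, and 265 and 157 after quantile normalization. *Mixl1* had 235 and 247 FPKM in streak and 2.22 and 0.783 FPKM in ectoderm, *T* had 302 and 325 FPKM in streak and 14.7 and 2.51 FPKM in ectoderm, and *Wnt3a* had 60.1 and 53.3 FPKM in streak and 2.82 and 1.28 FPKM in ectoderm. For streak minus ectoderm their log2 differences were 6.66, 5.41 and 4.29, with adjusted p of 3.01e-09, 3.46e-07 and 3.01e-09. *Nkx1-2* and *Wnt8a* were also higher in streak than in ectoderm (2.06 and 1.95, adjusted p = 2.06e-05 and 4.73e-06), and *Nkx1-2* still had 35.3 and 32.4 FPKM and *Wnt8a* 14.7 and 12.4 FPKM in ectoderm. *Cdh1*, *Epcam*, *Esrp1* and *Nanog* were not called between streak and ectoderm, with log2 differences of 0.42, -0.39, -0.14 and 0.01. *Cldn6*, a claudin of early epithelia, had 6.05 and 0.871 FPKM in mesoderm and 34.2 and 25.6 FPKM in streak, against 185 and 146 FPKM in ectoderm and 843 and 748 FPKM in endoderm, and its fall in mesoderm relative to streak (-3.07 ± 0.61, adjusted p = 0.00286) was not called without the second mesoderm library (adjusted p = 0.103). The ectoderm libraries differed from each other more than those of any other E7.5 tissue, and without the first of them 1702 genes were called between streak and ectoderm.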

How the data were processed

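RNA-seq libraries of E7.5 mesoderm and primitive streak (2 each) were grouped by their tissue labels and compared within the table of all in vivo libraries. Its values are FPKM computed by the authors, for which the submitters' processing notes list mm9, TopHat2 2.0.11 and Cufflinks 2.0.2. Symbols turned into dates (27 lines, 4 of them repeats) were dropped, and 3398 values at or under 1e-06 FPKM were set to 0. A gene was tested when 2 or more of the 22 libraries reached 1 FPKM. Tests were made with limma 3.58.1 in R 4.3.3 (moderated test with a mean-variance trend) on log2(FPKM + 1), all 11 groups of 2 libraries sharing the spread. P-values were two-sided, Benjamini-Hochberg adjusted over the 12874 genes, and the ± after a log2 difference is limma's standard error. Streak against ectoderm and mesoderm against endoderm came from the same fit. The procedure was tested on simulated data. Count tests were not used, because FPKM are not counts.

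The text names the 10 largest called rises and the 10 largest called falls whose higher tissue averaged 10 FPKM or more, the 5 called genes of highest level in each direction, the 6 markers, and members of the 34 lists where a list is described. The members, the lists and the tests were chosen with earlier results of these data known. Genes may sit in several lists, and the values of some genes are not reported here. Because the libraries do not mark strand, reads of overlapping or antisense genes cannot be told apart, and families of near-identical genes (*Bex*, *Ifitm*, keratin copies) may share reads. Alternatives were another pseudocount, other filters, quantile normalization, fewer libraries in the fit, array weights, the replicate number as a block, and leaving out each library. Promoter sequences are those of the RefSeq table for GRCm38.p6 and were matched by symbol; no coordinates of the expression build are given.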

Additional observations from a re-analysis of the deposited data

How the results depend on the processing

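The 692 genes called between mesoderm and streak became 495 with a filter at 5 FPKM, 593 with only the 4 compared libraries in the fit, 599 with the 8 libraries of E7.5, 614 with a pseudocount of 0.1, 648 without a filter, 679 after quantile normalization, 724 with the filter applied to the 4 libraries and 837 with array weights, and lay between 495 and 538 when 1 library was left out. With the replicate number as a block the count was 691, and same-numbered deviations of mesoderm and streak correlated at 0.262 over the genes tested; with 2 pairs the numbers are not shown to pair the libraries. Under the block *Pou5f1* (adjusted p = 0.0553) and *Wnt3* (adjusted p = 0.056) were no longer called, and no other named gene changed its call. Of 126 called genes named in the text, 111 were tested under all 13 alternatives and 72 of these kept their call in each; the other 15 fell out under the filter at 5 FPKM, and 12 of them kept their call in the alternatives that tested them. Apart from omitted libraries, the call was lost by 20 genes with a pseudocount of 0.1 (*Actc1*, *Bex1*, *Crabp1*, *Dll1*, *Gadd45a*, *Apela*, *Hoxb1*, *Ifitm1*, *Itga1*, *Jun*, *Lmo2*, *Msgn1*, *Myc*, *Pdgfra*, *Pou5f1*, *Spry4*, *Tbx6*, *Tceal8*, *Wnt2* and *Wnt3*), by 23 with only the 4 libraries (*Bmp2*, *Cldn6*, *Dab2*, *Foxj1*, *Gata4*, *Apela*, *Hes7*, *Hhex*, *Hoxb6*, *Itga1*, *Jun*, *Mesp1*, *Msgn1*, *Msx2*, *Otx2*, *Pim2*, *Plac1*, *Sfrp5*, *Tbx3*, *Tdh*, *Wnt2*, *Wnt3* and *Zeb1*), by 9 with the 8 libraries of E7.5 (*Dll1*, *Dnmt3b*, *Apela*, *Hoxb1*, *Itga1*, *Jun*, *Msgn1*, *Wnt2* and *Wnt3*), by 3 without a filter (*Dab2*, *Pou5f1* and *Wnt3*), and by *Wnt3* with the filter at 5 FPKM and after quantile normalization. *Axin2* was called with array weights and with only the 4 libraries (adjusted p = 0.000228 and 0.0221), *Eomes* with array weights and with a pseudocount of 0.1 (adjusted p = 0.00268 and 0.0452), and *Foxa2* with that pseudocount (adjusted p = 0.0085). None of the 126 called genes named in the text changed direction.

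Among named genes that were not called, the log2 difference changed sign for 13 when a library was left out, ranging from -0.31 to 0.0404 for *Aplnr*, -0.14 to 1.11 for *Cdx4*, -0.90 to 0.11 for *Dppa3*, -0.0692 to 0.23 for *Dsp*, -0.28 to 0.31 for *Fgfr1*, -0.22 to 0.0071 for *Lamc1*, -0.21 to 0.057 for *Ldha*, -0.26 to 0.15 for *Lef1*, -0.49 to 2.48 for *Lefty2*, -0.65 to 0.13 for *Nanos3*, -0.0706 to 0.0946 for *Peg3*, -0.41 to 0.35 for *Tet1* and -1.20 to 0.17 for *Ttr*. After quantile normalization *Peg3* and *Tet1* stood at -0.0604 and 0.0102. Between mesoderm and endoderm the 1838 calls lay between 1386 and 1974 under the alternatives. The 428 calls between streak and ectoderm became 238 with array weights and 0 with only those 4 libraries in limma's fit, where 1229 genes had an unadjusted p under 0.05, and they lay between 297 and 1702 when 1 library was left out, the highest without the first ectoderm library. The cause was not tested. Groups of 2 libraries leave the spread to be borrowed from other tissues and across genes, and the absolute depth is unknown.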

Other observations

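Epiblast of E6.5, the day before, was sequenced in the same series, and its 2 libraries give a level for the genes that separated mesoderm from streak; no test was made of these values. Several genes that fell in mesoderm had high levels there. *Cdh1* had 144 and 116 FPKM in epiblast, *Epcam* 207 and 104, *Pou5f1* 337 and 441, *Nanog* 57.01 and 45.9, *Pim2* 683 and 599.9 and *Dnmt3b* 181 and 168. Others had low levels, so that streak held more than both earlier epiblast and mesoderm of its own day. *T* had 4.01 and 6.22 FPKM in epiblast, *Nkx1-2* 0.781 and 0.414, *Wnt8a* 4.34 and 4.72, *Grhl3* 0.256 and 0.301, *Fgf17* 2.31 and 3.17 and *Cdkn1a* 2.22 and 3.33. *Mixl1* lay between, with 38.9 and 40.7 FPKM.

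Genes that rose in mesoderm also differed in that tissue. *Hand1* had 0.559 and 0.788 FPKM in epiblast, *Phlda2* 20.1 and 23.4, *Ifitm1* 12.5 and 21.2 and *Krt8* 8.20 and 9.98. For *Phlda2* and *Ifitm1*, both streak libraries lay above both epiblast libraries and below both mesoderm libraries. *Otx2* had 129 and 101 FPKM in epiblast and *Mest* 124 and 98.1. For both genes the streak libraries lay below the epiblast libraries, while the mesoderm libraries lay below epiblast for *Otx2* and above it for *Mest*.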
